A study of Mus musculus with 12 samples.

Results

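RNA levels of 10 genes of RANK, calcitonin receptor and ITAM signalling were followed in mouse macrophages and osteoclasts with and without lipopolysaccharide (LPS, a bacterial cell wall product that activates TLR4). The 10 genes were chosen by name, Tnfrsf11a, Calcr, Oscar, Trem2, Tyrobp, Fcer1g, Syk, Plcg2, Btk and Tec, and each symbol matched 1 Ensembl identifier among the 54532 genes of the deposited table. All 10 had at least 1 FPKM (fragments per kilobase of gene length, scaled by a denominator per library) in at least 3 of the 12 libraries, the filter that left 11335 genes for testing. Calcr and Oscar passed it through their osteoclast libraries alone.

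Bone marrow cells of wild-type (WT) mice were expanded with CMG, a source of M-CSF, and all 4 groups were kept in CMG. The groups were macrophages without RANKL and without LPS (MA_NT), macrophages without RANKL given 100 ng/mL LPS for 3 h (MA_LPS), osteoclasts grown with RANKL and no LPS (OC_NT), and such osteoclasts given the same LPS (OC_LPS). Each group had 3 libraries, LPS was given on day 5, and the labels give RANKL as 100 ng/mL in the sample source but as a range in the protocol. The mice's age, sex and strain are not given in the sources used here. No label says whether the 3 libraries of a group came from separate animals or cultures, so p-values measure the spread between these libraries, which may be technical.

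Libraries held 15651736 to 20281414 reads assigned to genes, and no pair of replicates agreed within sampling noise (chi-square over degrees of freedom, 2.62 to 12.6). The summed level of 8 osteoclast markers was 16.3 to 28.9 FPKM in the 6 macrophage libraries and 29030 FPKM or more in each of the 6 osteoclast libraries, so the cell labels matched the defining genes. The summed level of 8 macrophage markers was 2101 to 2176 FPKM in untreated macrophages and 1730 to 1809 FPKM in untreated osteoclasts, where 6 of the 8 were at 1 FPKM or more. That osteoclast sum was mostly Cd68 (1402 FPKM, above its 670 FPKM in macrophages) and Csf1r (310 FPKM), and the other markers were far lower, such as Adgre1 (428 and 33.1 FPKM in untreated macrophages and osteoclasts), Mrc1 (293 and 2.57 FPKM) and Cx3cr1 (142 and 0.486 FPKM). The mitochondrial share of reads was 1.57% ± 0.0585 in untreated macrophages against 5.59% ± 0.278 in untreated osteoclasts (SD, n = 3), and the part of that difference in the results was not tested. In these bulk samples, fewer cells of a type and less RNA per cell cannot be told apart.

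RANK, encoded by Tnfrsf11a, is the receptor that RANKL engages on osteoclast precursors, and it recruits TRAF6 to activate NF-kB, MAP kinases and the transcription factor NFATc1. Osteoclast formation also needs a co-stimulatory signal from immunoreceptors that carry no signalling motif of their own and pair with the ITAM adapters DAP12 (Tyrobp) and FcRγ (Fcer1g). OSCAR pairs with FcRγ and TREM2 with DAP12. Phosphorylated ITAMs recruit the kinase SYK, which with the TEC family kinases BTK and TEC activates phospholipase Cγ2 (Plcg2) and the calcium signal that drives calcineurin and NFATc1. The calcitonin receptor, encoded by Calcr, is a G protein-coupled receptor of mature osteoclasts through which calcitonin restrains bone resorption.

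The stretches upstream of Oscar, Calcr and Trem2 are shown because these genes had the largest cell type differences of the 10. They are RefSeq sequences of build GRCm38.p6, read 5′ to 3′ on the gene's strand, and hold the 150 bases before an annotated start. Capitals mark matches on either strand to any of 5 motifs, TGANTCA (AP-1), GGAAA (NFAT core), CACGTG and CATGTG (E-boxes that MITF family factors can bind) and GAGGAA (PU.1); GGAAA and GAGGAA can overlap. For Oscar the window is chr7:3616158-3616307 on the minus strand, for the Calcr start shown chr6:3764714-3764863 on the minus strand, and for Trem2 chr17:48346251-48346400 on the plus strand.
Oscar: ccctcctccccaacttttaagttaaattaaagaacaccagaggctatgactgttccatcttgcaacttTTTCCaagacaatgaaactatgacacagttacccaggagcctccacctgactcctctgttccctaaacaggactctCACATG
Calcr: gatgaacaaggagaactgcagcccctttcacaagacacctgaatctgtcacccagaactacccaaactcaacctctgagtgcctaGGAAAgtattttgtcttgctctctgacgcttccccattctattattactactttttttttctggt
Trem2: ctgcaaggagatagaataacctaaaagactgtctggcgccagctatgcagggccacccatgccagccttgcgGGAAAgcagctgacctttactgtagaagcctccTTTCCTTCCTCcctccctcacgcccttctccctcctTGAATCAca

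Over the full 250 bases searched, Oscar held 3 matches to GGAAA, 1 to CATGTG (read as CACATG directly before the start) and 1 to GAGGAA. Trem2 held 1 match to TGANTCA, 3 to GGAAA and 1 to GAGGAA. The Calcr start shown held 1 match to GGAAA, and the other Calcr start in the table held none of the 5 motifs. Among 32851 promoter windows of the same length, 6.75% held TGANTCA, 55.6% GGAAA, 6.02% CACGTG, 12.3% CATGTG and 23.3% GAGGAA. A match describes the letters of the window and shows no binding.

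**Figure D1:**
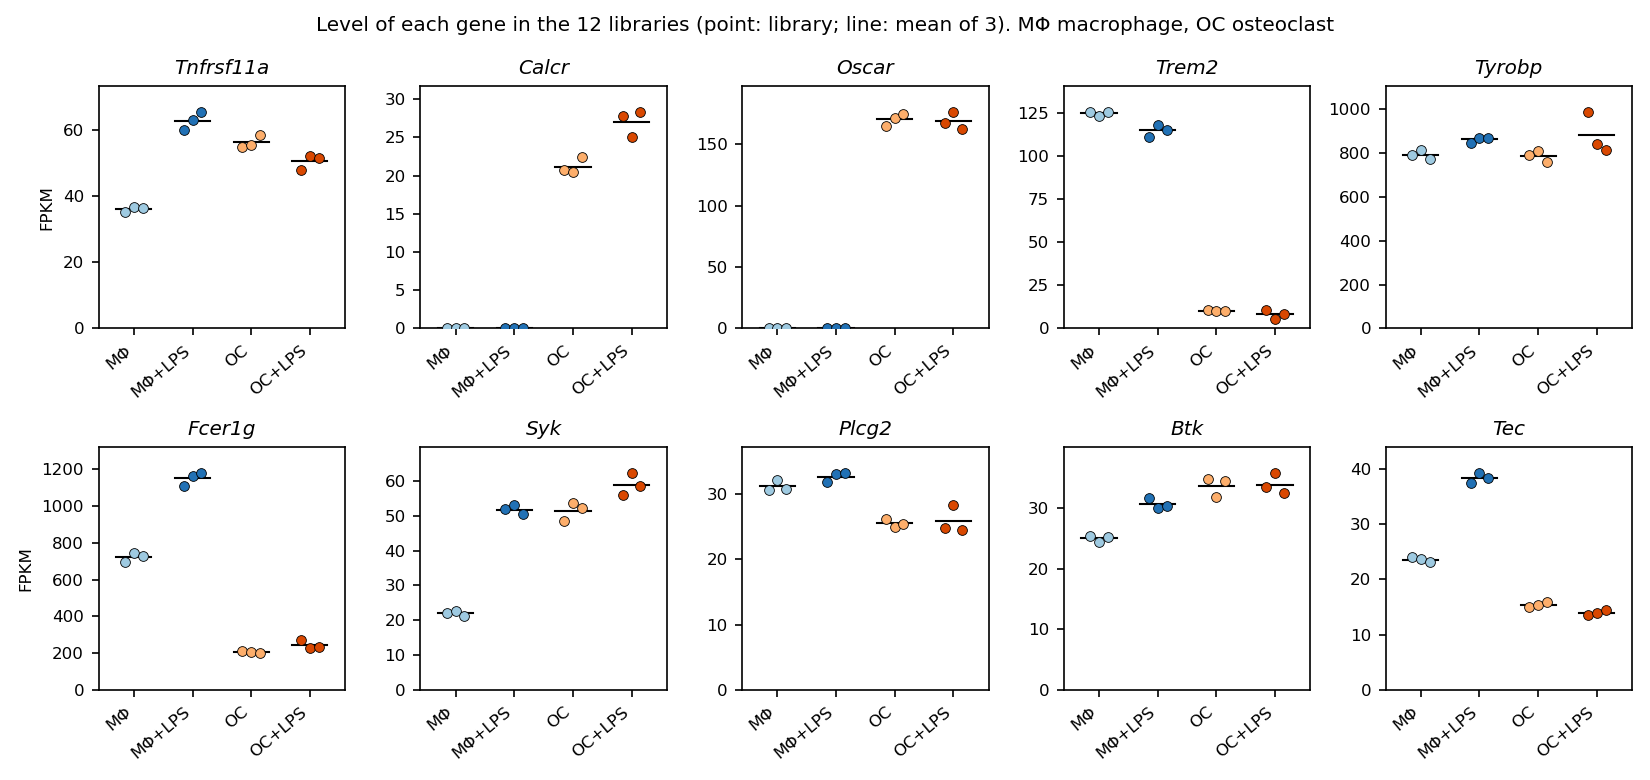
FPKM of the 10 genes in the 12 libraries, 1 panel per gene with its own vertical axis from 0; points are libraries and lines are means of 3 (MΦ, macrophage; OC, osteoclast). Calcr and Oscar lie at or near 0 in every macrophage library, and Trem2 lies between 111 and 126 FPKM in macrophages and under 11 FPKM in osteoclasts.

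Osteoclasts and macrophages were compared without LPS to see how the 2 cell types differ at rest. Limma (adjusted p under 0.05 over all 11335 genes) called 9 of the 10 genes, where 77.8% of all genes tested were called. Of the 9, 5 were higher in osteoclasts (38.8% of all genes) and 4 lower (39.0%). Calcr and Oscar are 2 of the 5 and had to differ, since they were tested only for their level in osteoclasts. No library of 1 group reached into the other for 9 of the 10, against 81.4% of all genes. Rescaling to TPM shifted the all-gene median from 0 to -0.38, the share of calls that were higher from 49.9% to 29.9%, and left Btk at 0.01 without a call, and the other 8 called genes kept their direction and call.

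Calcr and Oscar RNA was at the floor in macrophages and abundant in osteoclasts, while Tnfrsf11a was well expressed in both. Calcr (ENSMUSG00000023964, chromosome 6, 3685680 to 3764714, GRCm38) had 0 reads in each of the 3 untreated macrophage libraries and 0, 0 and 1 reads in the LPS-treated ones. In untreated osteoclasts it was at 20.7, 20.4 and 22.4 FPKM, from 1351 to 1493 reads a library. It was thus at the floor (3 reads or fewer in every library, counting error only) in macrophages and at least 634-fold higher in osteoclasts. The log2 difference on the log2(FPKM + 1) scale was 4.47, given as a description because the filter used these osteoclast values. Calcr ranked 2031 of the 11335 genes by mean FPKM in untreated osteoclasts.

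Oscar (ENSMUSG00000054594, chromosome 7, 3609813 to 3616157), the collagen-binding receptor that signals through FcRγ, was at 165.0, 171.9 and 174.7 FPKM in untreated osteoclasts. Macrophage libraries held 1, 0 and 2 of its reads without LPS and 2, 0 and 2 with LPS. That is the floor. Without LPS, Oscar was at least 2412-fold higher in osteoclasts than in macrophages, and with LPS at least 1441-fold. The log2 difference was 7.39, again a description, and Oscar ranked 251 of 11335 in untreated osteoclasts.

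Tnfrsf11a (ENSMUSG00000026321, chromosome 1, 105780718 to 105847981) encodes the RANKL receptor itself and was at 35.3, 36.7 and 36.4 FPKM in untreated macrophages and at 55.0, 55.6 and 58.5 FPKM in untreated osteoclasts. The groups did not overlap, and the level was 1.56-fold higher in osteoclasts (log2 difference 0.63, SE 0.05, limma adjusted p 7.31e-08). After rescaling to TPM the difference was 0.22 (adjusted p 0.00379).

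Trem2 (ENSMUSG00000023992, chromosome 17, 48346401 to 48354147), the lipid-binding receptor that signals through DAP12, went the other way from Oscar. It was at 125.4, 123.3 and 125.6 FPKM in untreated macrophages and at 10.7, 9.94 and 10.0 FPKM in untreated osteoclasts. The mean was 12.2-fold lower in osteoclasts (log2 difference -3.49, SE 0.14, limma adjusted p 2.82e-10). It ranked 255 of 11335 genes in untreated macrophages and 3732 in untreated osteoclasts. Oscar was 16.7 ± 1.15 times Trem2 in FPKM within untreated osteoclast libraries (SD, n = 3) and 16.0, 31.1 and 18.9 times within the LPS-treated ones. FPKM divides by exon length, 1847 bases for Oscar and 4946 for Trem2. Untreated osteoclast library 1 held 5626 and 979 of their reads. Between untreated osteoclasts and macrophages the markers Cx3cr1, Mrc1 and Fcgr1 were at -6.60, -6.37 and -5.01, Adgre1 at -3.66, Csf1r at -0.51 and Cd68 at 1.06. The part of these macrophage markers in the level of Trem2 was not tested.

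Of the 2 ITAM adapters, Fcer1g was lower in osteoclasts and Tyrobp was not called. Tyrobp (ENSMUSG00000030579, chromosome 7, 30413760 to 30417585) was at 791.9, 811.7 and 771.4 FPKM in untreated macrophages and at 793.3, 810.6 and 758.5 FPKM in untreated osteoclasts, and the groups overlapped. Its log2 difference was -0.01 (95% interval -0.15 to 0.13, limma adjusted p 0.918), but after rescaling to TPM it was -0.43 and after quantile normalization -0.82, both called. Fcer1g (ENSMUSG00000058715, chromosome 1, 171229572 to 171234365) was at 695.1, 742.8 and 728.4 FPKM in untreated macrophages and at 212.3, 205.7 and 202.5 FPKM in untreated osteoclasts. It was 3.49-fold lower in osteoclasts (log2 difference -1.80, SE 0.06, limma adjusted p 5.43e-11).

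A ratio of 2 genes within a library is unchanged by any 1 factor per library, as in TPM, but not by quantile normalization. It depends on the exon bases assigned to each gene, 4946 for Trem2, 1847 for Oscar, 874 for Fcer1g and 667 for Tyrobp. Its size is therefore not a ratio of reads and need not be one of transcripts. Fcer1g was 0.912 ± 0.0333 times Tyrobp in untreated macrophages and 0.263 ± 0.00784 times Tyrobp in untreated osteoclasts (SD, n = 3). No ratio in a macrophage library reached down to any osteoclast ratio. The ratios are given as descriptions, and no test of them was run. Oscar, whose partner is FcRγ, was at 0.825 ± 0.0436 times Fcer1g in untreated osteoclasts, and Trem2, whose partner is DAP12, was at 0.0130 ± 0.000651 times Tyrobp there and 0.158 ± 0.00549 times Tyrobp in untreated macrophages (SD, n = 3). Markers of mast cells and basophils, which also use FcRγ, summed to at most 0.458 FPKM in any group, with Fcer1a, Ms4a2 and Cpa3 at the floor in all 4.

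Downstream of the adapters come the kinases. Syk (ENSMUSG00000021457, chromosome 13, 52583173 to 52648792) was at 22.1, 22.7 and 21.1 FPKM in untreated macrophages and at 48.5, 53.5 and 52.3 FPKM in untreated osteoclasts. It was 2.34-fold higher in osteoclasts (log2 difference 1.19, SE 0.05, limma adjusted p 3.66e-10), and the groups did not overlap. Btk (ENSMUSG00000031264, chromosome X, 134542336 to 134583570) was at 25.4, 24.4 and 25.3 FPKM in untreated macrophages and at 34.8, 31.9 and 34.4 FPKM in untreated osteoclasts, a log2 difference of 0.41 (SE 0.05, limma adjusted p 4.72e-06) that was 0.01 after rescaling to TPM (adjusted p 0.884). Tec (ENSMUSG00000029217, chromosome 5, 72755716 to 72868483) was lower, at 24.0, 23.6 and 23.2 FPKM in untreated macrophages and 14.98, 15.4 and 15.9 FPKM in untreated osteoclasts, a log2 difference of -0.58 (SE 0.04, limma adjusted p 2.48e-08) that was -1.02 after rescaling to TPM.

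Within libraries Tec was 0.944 ± 0.0251 times Btk in untreated macrophages and 0.458 ± 0.0262 times Btk in untreated osteoclasts (SD, n = 3), without overlap. Plcg2 (ENSMUSG00000034330, chromosome 8, 117498291 to 117635142), the enzyme these kinases activate, was at 30.6, 32.0 and 30.8 FPKM in untreated macrophages and at 26.2, 24.9 and 25.4 FPKM in untreated osteoclasts, a log2 difference of -0.28 (SE 0.05, limma adjusted p 0.000354) that was -0.70 after rescaling to TPM and -0.45 with quantile normalization. The within-library ratio of Plcg2 to Syk was 1.42 ± 0.0352 in untreated macrophages and 0.497 ± 0.0379 in untreated osteoclasts (SD, n = 3).

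Btk and Plcg2 are also genes of B cells. Of 8 B cell markers, Ighm alone reached 1 FPKM, with a mean of 18.2 FPKM in untreated macrophages, and the 8 summed to 16.9 to 20.4 FPKM in macrophage libraries and 0.101 to 0.224 FPKM in osteoclast libraries. Cd79a, Pax5 and Blk were at the floor in all 4 groups. Of 8 megakaryocyte and platelet markers, which bear on Syk, Plcg2 and Fcer1g, the sum was 598 to 930 FPKM in macrophage libraries, nearly all from Pf4, and 8.41 to 19.7 FPKM in osteoclast libraries, with Gp9, Gp1bb and Gp6 at the floor in all 4 groups. The part of these lists in the results was not tested.

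**Figure D2:**
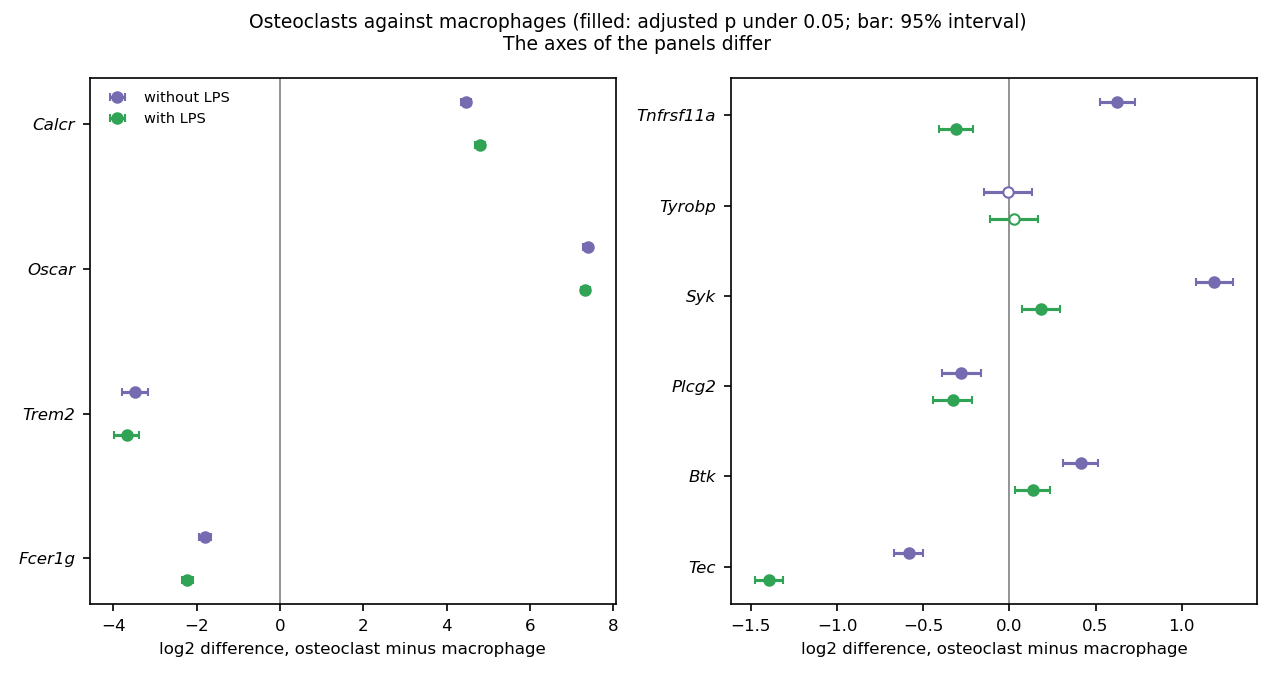
Log2 difference of osteoclasts minus macrophages on the log2(FPKM + 1) scale for each gene, without LPS (purple) and with LPS (green); bars are 95% intervals, filled points have a limma adjusted p under 0.05, and the panels have different axes. Calcr and Oscar lie far right and Trem2 and Fcer1g far left in both states, while Tnfrsf11a changes side with LPS as deposited (0.63 and -0.31; the latter is 0.02 after quantile normalization).

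The LPS effect in macrophages asks how an inflammatory stimulus acts on this set in cells kept without RANKL. Limma called 5 of the 10 genes, all 5 higher, where 69.9% of all genes tested were called, 36.8% higher and 33.1% lower. The libraries did not overlap for 7 of the 10, against 74.0% of all genes. Both the count and the direction depended on scaling: of the 10, TPM called 2 higher and 4 lower and quantile normalization 3 higher and 5 lower. Rescaling to TPM moved the median of all genes from 0.02 to -0.55 and quantile normalization to -0.14, and the share of calls that were higher went from 52.6% to 18.5% and 37.0%. Syk and Tnfrsf11a kept their direction and call under every alternative tried. Under TPM, Fcer1g was at 0.02 and Tec at 0.05 without a call and Btk was called lower at -0.35, and under quantile normalization Fcer1g was at -0.60 and Btk at -0.20.

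On the deposited scale Syk had the largest change of the 10, from 22.1, 22.7 and 21.1 to 51.8, 53.1 and 50.4 FPKM, a 2.36-fold rise (log2 difference 1.20, SE 0.05, limma adjusted p 5.16e-10). Every LPS-treated library was above every untreated one, and the difference stayed called at 0.58 after rescaling to TPM, where that of Trem2 was larger at -0.77, and at 0.68 with quantile normalization, where those of Tyrobp (-1.09) and Trem2 (-0.99) were larger. As deposited, Syk in LPS-treated macrophages lay within the range of untreated osteoclasts, 48.5 to 53.5 FPKM. This match depended on scaling. Against MA_NT, MA_LPS was at 0.58 and OC_NT at 0.80 after rescaling to TPM, and at 0.68 and 1.06 with quantile normalization. The ratio of Syk to Tyrobp went from 0.0278 ± 0.000322 to 0.0601 ± 0.00188 within libraries (SD, n = 3).

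Tnfrsf11a rose from 35.3, 36.7 and 36.4 FPKM to 60.0, 63.3 and 65.6 FPKM, 1.74-fold (log2 difference 0.78, SE 0.05, limma adjusted p 1.33e-08). After rescaling to TPM the rise was 0.15 (adjusted p 0.0293). As deposited, RANK RNA in LPS-treated macrophages was above that of any osteoclast library, and the order of the 4 groups was MA_LPS, OC_NT, OC_LPS and MA_NT, with no overlap between neighbours. The order turned with scaling: against MA_NT, OC_NT was at 0.22 and MA_LPS at 0.15 after rescaling to TPM, and at 0.42 and 0.15 with quantile normalization.

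Fcer1g went from 695.1, 742.8 and 728.4 to 1111, 1165 and 1177 FPKM (log2 difference 0.67, SE 0.06, limma adjusted p 7.95e-07), while Tyrobp went from 791.9, 811.7 and 771.4 to 847.3, 868.9 and 870.8 FPKM (0.12, SE 0.06, limma adjusted p 0.104). Both adapters were without overlap. The direction for Tyrobp depended on scaling: it was called lower after rescaling to TPM (-0.52, adjusted p 5.71e-07) and with quantile normalization (-1.09, adjusted p 3.48e-09), and called higher at an adjusted p of 0.00781 without OC_LPS replicate 1 and at 0.0119 in a fit of the macrophage groups alone. Within libraries Fcer1g went from 0.912 ± 0.0333 to 1.33 ± 0.0212 times Tyrobp (SD, n = 3). LPS-treated macrophages were the one group in which Fcer1g exceeded Tyrobp in FPKM. By reads, 43523 against 36431, it did so in untreated macrophages too.

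Among the TEC kinases, Tec rose from 24.0, 23.6 and 23.2 to 37.5, 39.2 and 38.4 FPKM (log2 difference 0.68, SE 0.04, limma adjusted p 9.19e-09) and Btk from 25.4, 24.4 and 25.3 to 31.7, 30.0 and 30.4 FPKM (0.28, SE 0.05, limma adjusted p 0.000170), on the deposited scale. The Tec to Btk ratio within libraries was 0.944 ± 0.0251 without and 1.25 ± 0.0643 with LPS (SD, n = 3), and the libraries did not overlap. Plcg2 overlapped between the groups, at 30.6 to 32.0 FPKM without and 31.8 to 33.1 FPKM with LPS (log2 difference 0.06, 95% interval -0.05 to 0.18), but was called lower after rescaling to TPM (-0.58, adjusted p 2.49e-06) and with quantile normalization (-0.46, adjusted p 3.45e-06). Set against Syk, Plcg2 was at 1.42 ± 0.0352 without and 0.630 ± 0.0235 with LPS (SD, n = 3).

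Trem2 was at 111.2, 118.0 and 115.4 FPKM with LPS, each below the 123.3 to 125.6 FPKM without it, but its log2 difference of -0.12 was not called (SE 0.14, limma adjusted p 0.474). That SE pools all 4 groups. The SD of Trem2 was 1.03% and 2.98% of the mean in the macrophage groups and 29.2% in LPS-treated osteoclasts. Trem2 was called at -0.77 after rescaling to TPM, at -0.99 after quantile normalization and at -0.12 in a fit of the macrophage groups alone (adjusted p 0.0106). Relative to its adapter, Trem2 went from 0.158 ± 0.00549 to 0.133 ± 0.00234 times Tyrobp (SD, n = 3), without overlap. Calcr and Oscar were at the floor in both macrophage groups, so no LPS effect on them could be measured there.

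**Figure D3:**
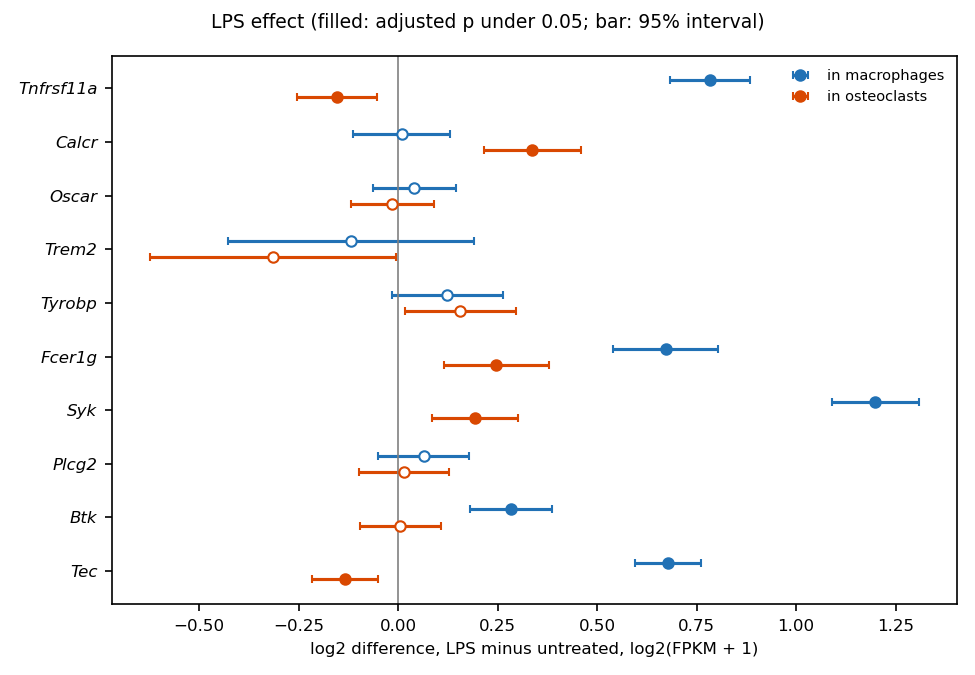
LPS effect on each gene as a log2 difference on the log2(FPKM + 1) scale, in macrophages (blue) and osteoclasts (orange); bars are 95% intervals and filled points have a limma adjusted p under 0.05. Syk is at 1.20 in macrophages and 0.19 in osteoclasts, and Tnfrsf11a and Tec lie right of 0 in macrophages and left of 0 in osteoclasts; after rescaling to TPM, Fcer1g and Tec in macrophages lie at 0.02 and 0.05 and Btk at -0.35.

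In osteoclasts given the same LPS, limma called 5 of the 10, where 17.7% of all genes tested were called. Calcr, Fcer1g and Syk were higher (11.1% of all genes) and Tnfrsf11a and Tec lower (6.59%). The libraries did not overlap for 6 of the 10, against 34.0% of all genes. Of all calls 62.8% were higher, against 43.5% on the TPM scale and 38.5% with quantile normalization. The log2 differences of the 10 ranged from -0.31 to 0.34, against -0.12 to 1.20 in macrophages. All genes also changed less: their median absolute difference was 0.37 in macrophages and 0.10 in osteoclasts, against 0.20 and 0.15 for the 10. Summed over 8 LPS response markers, the level was 14518 to 15033 FPKM in LPS-treated macrophages and 817 to 1176 FPKM in LPS-treated osteoclasts.

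Calcr rose from 20.7, 20.4 and 22.4 FPKM to 27.8, 25.02 and 28.3 FPKM, 1.28-fold (log2 difference 0.34, SE 0.06, limma adjusted p 0.00123). The groups did not overlap, and the call held under all 9 alternatives and without each of the 12 libraries in turn, at 0.26 to 0.39. Tnfrsf11a fell from 55.0, 55.6 and 58.5 to 47.9, 52.2 and 51.8 FPKM (log2 difference -0.15, SE 0.05, limma adjusted p 0.0389). Within libraries Calcr was 0.375 ± 0.00800 times Tnfrsf11a without and 0.535 ± 0.0513 times with LPS (SD, n = 3), with no overlap.

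The other 4 calls in osteoclasts were small and near the threshold. Syk was at 48.5, 53.5 and 52.3 FPKM without and 56.1, 62.1 and 58.6 FPKM with LPS (0.19, SE 0.05, limma adjusted p 0.0192), and Fcer1g at 202.5 to 212.3 and 229.8 to 273.9 FPKM (0.25, SE 0.06, limma adjusted p 0.0150). Tec was at 14.98, 15.4 and 15.9 FPKM without and 13.6, 13.8 and 14.5 FPKM with LPS (-0.13, SE 0.04, limma adjusted p 0.0323). The count of 5 was 1, Calcr, in a fit of the osteoclast groups alone. In single omissions Tnfrsf11a lost its call without MA_NT 2 or 3, MA_LPS 2, any OC_NT library or OC_LPS 1 (adjusted p up to 0.146), and Tec without MA_NT 2, OC_NT 2 or 3, or OC_LPS 1 or 2 (up to 0.126). Syk lost it without OC_NT 1 or OC_LPS 2 (up to 0.0767) and Fcer1g without OC_NT 3 (0.0611). Syk was not called after rescaling to TPM (0.12) or quantile normalization (0.10), nor Fcer1g after the latter (0.12). The chi-square over degrees of freedom between OC_LPS replicates was 7.94 to 12.6, against at most 6.36 in the other groups. With LPS, Adgre1 rose in osteoclasts from 33.1 to 62.2 FPKM and Pf4 from 9.11 to 15.7 FPKM. The 8 macrophage markers summed to 1730 to 1809 FPKM without and 1740 to 1830 FPKM with LPS. The part of such RNA in the Fcer1g change was not tested.

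Oscar was at 165.0 to 174.7 FPKM without and 162.4 to 176.5 FPKM with LPS in osteoclasts (log2 difference -0.01, 95% interval -0.12 to 0.09). Btk (0.01, 95% interval -0.10 to 0.11) and Plcg2 (0.01, 95% interval -0.10 to 0.13) also overlapped between the groups. Trem2 was at 10.5, 5.68 and 8.61 FPKM with LPS, and its log2 difference of -0.31 was not called (limma adjusted p 0.154). Replicate 2 was the low library, and without it the difference was -0.10, whereas without replicate 1 it was called at -0.49 (adjusted p 0.0156). Tyrobp was at 987.3, 840.9 and 812.4 FPKM with LPS, each above every untreated osteoclast library. Its difference of 0.16 was not called (limma adjusted p 0.119) but was without OC_LPS replicate 3, at 0.21 (adjusted p 0.0431), and in voom on recovered reads (adjusted p 0.0499).

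With LPS in both cell types, osteoclasts differed from macrophages in 9 of the 10 genes, where limma called 83.9% of all genes. Calcr and Oscar, which had to differ, and Syk and Btk were higher in osteoclasts (40.9% of all genes) and Tnfrsf11a, Trem2, Fcer1g, Plcg2 and Tec lower (43.0%). The libraries did not overlap for 9 of the 10, against 83.6% of all genes. Rescaling to TPM moved the median of all genes by 0.14, from -0.02 to 0.12. Calcr was at least 488-fold higher (log2 difference 4.80) and Trem2 13.9-fold lower (-3.68). Fcer1g was 3.49-fold lower without LPS and 4.67-fold lower with it, and Tec 1.53-fold and 2.75-fold lower. The order of the Fcer1g values turned on the TPM scale (-2.22 without and -2.07 with LPS) and with quantile normalization (-2.55 and -1.83). Syk was 2.34-fold higher without LPS and 1.14-fold higher with it (0.18, SE 0.05, limma adjusted p 0.00446), the latter at 0.34 on the TPM scale and 0.49 with quantile normalization.

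Tnfrsf11a was lower in LPS-treated osteoclasts than in LPS-treated macrophages (-0.31, SE 0.05, limma adjusted p 4.41e-05), the reverse of the untreated state, but after quantile normalization it was at 0.02. Plcg2 was at -0.33 (SE 0.05, limma adjusted p 7.88e-05) and at -0.05 without a call after quantile normalization. Btk was at 0.14 (SE 0.05, limma adjusted p 0.0173), at 0.30 on the TPM scale and at 0.40 with quantile normalization, and lost its call without MA_LPS replicate 2 (0.12, adjusted p 0.0581) or OC_LPS replicate 2 (0.10, adjusted p 0.0720). Tyrobp was at 0.02 without a call (limma adjusted p 0.731), but was called higher in osteoclasts at 0.18 after rescaling to TPM (adjusted p 0.00365) and at 0.41 with quantile normalization (adjusted p 1.99e-05). The 4 comparisons share their groups, so their values are not independent of each other.

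The interaction, in which the macrophage effect of LPS is subtracted from the osteoclast effect, tested whether LPS acted differently in the 2 cell types. Limma called 6 of the 10 genes, where 56.6% of all genes were called. Syk (-1.01, SE 0.07, limma adjusted p 1.63e-07), Tnfrsf11a (-0.94, SE 0.06, limma adjusted p 1.53e-07), Tec (-0.81, SE 0.05, limma adjusted p 1.08e-07), Fcer1g (-0.42, SE 0.09, limma adjusted p 0.00113) and Btk (-0.28, SE 0.07, limma adjusted p 0.00349) were called below 0, as were 30.0% of all genes. Calcr was called above 0, as were 26.6% of all genes, at 0.33 (SE 0.08, limma adjusted p 0.00367). Syk, Tnfrsf11a and Tec kept direction and call under all 8 alternatives and 12 omissions, but were smaller on the TPM scale (-0.46, -0.38 and -0.26) and with quantile normalization (-0.57, -0.40 and -0.36). TPM put the all-gene median at 0.51 and the share of calls above 0 at 82.0% (quantile normalization 59.9%, as deposited 47.0%), and on that scale Fcer1g was at 0.15 without a call and Btk at 0.29, and after quantile normalization they were at 0.72 and 0.12. Tyrobp, at 0.03 without a call as deposited, was called at 0.61 after rescaling to TPM (adjusted p 7.48e-06) and at 1.23 with quantile normalization (adjusted p 8.00e-08). Plcg2, at -0.05 without a call, was called at 0.52 on the TPM scale (adjusted p 0.000198) and at 0.40 with quantile normalization (adjusted p 0.000370), and Trem2, at -0.20 without a call, at 0.61 with the latter (adjusted p 0.0171). The value for Calcr sets a rise in osteoclasts against macrophages at the floor. It was 0.27 (adjusted p 0.134) with a pseudocount of 0.1 and -0.90 in voom on recovered reads.

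**Figure D4:**
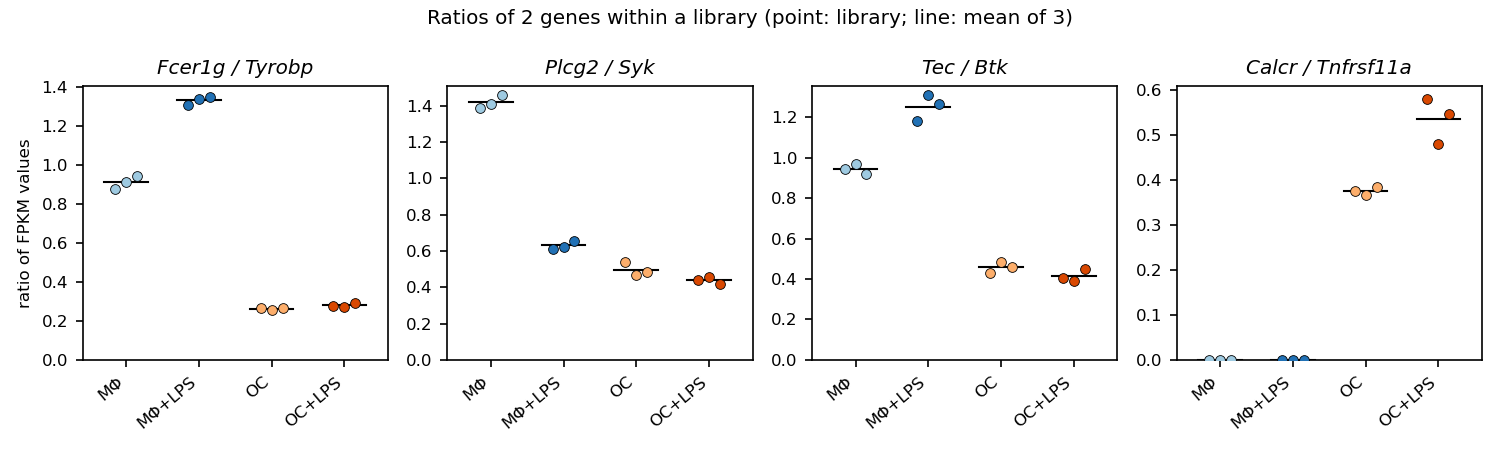
Ratios of 2 FPKM values within each library, which 1 factor per library cannot change; points are libraries and lines are means of 3, and each vertical axis starts at 0. Fcer1g over Tyrobp and Tec over Btk are highest in LPS-treated macrophages (1.33 and 1.25), Plcg2 over Syk is highest in untreated macrophages (1.42), and Calcr over Tnfrsf11a is near 0 in macrophages and 0.375 and 0.535 in osteoclasts.

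The genes around the 10 were read from 7 pathway lists. The shares of all genes called set the background for each count: 38.8% higher and 39.0% lower between untreated cell types, 36.8% and 33.1% for LPS in macrophages, 11.1% and 6.59% for LPS in osteoclasts, and 26.6% and 30.0% for the interaction. Of 18 tested genes of RANK proximal signalling, 10 were higher and 6 lower in untreated osteoclasts than in untreated macrophages, with a median log2 difference of 0.34 against 0 over all genes (7 and 8, median -0.07, after rescaling to TPM). Traf1, an inducible adapter of TNF receptors, was at 0.269 FPKM in untreated macrophages and 13.1 FPKM in untreated osteoclasts (3.48, SE 0.04, limma adjusted p 1.36e-14). Traf6, the adapter that RANK needs, went from 5.90 to 14.4 FPKM (1.16, SE 0.06, limma adjusted p 3.49e-09). Ikbkg, the regulatory subunit of the IkB kinase, was at 1.06, but shares exon sequence with G6pdx on the opposite strand and is uncertain. Tnfrsf11b, the decoy receptor for RANKL and 1 of the 6 lower, was low in untreated macrophages at 2.58 FPKM and lower in untreated osteoclasts at 0.0256 FPKM. No untreated osteoclast library reached the 1 FPKM of the filter, so its log2 difference of -1.80 is given as a description. The same limit holds for any list gene that passed the filter through 1 cell type alone. Of 8 stromal and osteoblast markers the sum was also lower in osteoclasts, 26.9 to 37.3 FPKM in untreated macrophage libraries and 0.613 to 0.963 FPKM in untreated osteoclast libraries, with Col1a1 at 19.9 and 0.0660 FPKM, Col1a2 at 8.59 and 0.0302 FPKM, and Bglap at the floor in all 4 groups. The part of stromal cells in the level of Tnfrsf11b was not tested. Tnfsf11, the gene for RANKL itself, did not pass the filter.

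With LPS, 14 of the 18 were higher and 3 lower in macrophages (5 and 6 after rescaling to TPM) and 6 higher and 1 lower in osteoclasts. Traf1 rose by 5.13 in macrophages and 1.17 in osteoclasts (SE 0.04 for both, limma adjusted p 2.83e-15 and 4.11e-09). Sqstm1, the p62 scaffold that binds TRAF6, rose by 2.53 and 1.22 (SE 0.04, limma adjusted p 1.46e-13 and 1.57e-09), and shares exon sequence with Mrnip on the opposite strand. In the interaction, 12 of the 18 were below 0 and 3 above as deposited, against 5 and 7 after rescaling to TPM.

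Of 10 genes of the calcitonin receptor family and its coupling, 4 were tested. In untreated osteoclasts 1 was higher and 0 lower (0 and 2 after rescaling to TPM), with LPS 3 were higher and 1 lower in macrophages (1 and 3 after rescaling to TPM), and 1 each way in osteoclasts. Ramp1, Ramp2 and Ramp3, the partner proteins that turn the calcitonin receptor into an amylin receptor, and the ligand genes Calca, Calcb and Iapp did not pass the filter. Gnas, which encodes the stimulatory G protein subunit, was at 3.14 FPKM in untreated macrophages and 4.29 FPKM in untreated osteoclasts (0.35, SE 0.06, limma adjusted p 0.000292), but at 0.03 without a call after rescaling to TPM. Calcrl, the relative of Calcr that binds CGRP and adrenomedullin, did not follow the Calcr pattern. It was at 5.72 and 6.95 FPKM in untreated macrophages and osteoclasts (0.25, limma adjusted p 0.152) and rose with LPS by 3.97 in macrophages and 1.10 in osteoclasts (SE 0.15 for both, limma adjusted p 2.43e-10 and 0.000287). Gnaq, of the other G protein route, was at 0.44 in macrophages and -0.16 in osteoclasts with LPS (limma adjusted p 6.77e-07 and 0.0166), and the former was -0.19 after rescaling to TPM.

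Among 17 tested receptors that pair with DAP12 or FcRγ, Oscar and Trem2 not counted, 15 were lower and 2 higher in untreated osteoclasts, with a median of -1.34, and the counts were the same after rescaling to TPM or quantile normalization. Fcgr1, the high-affinity IgG receptor, was at 45.1 FPKM in untreated macrophages and 0.429 FPKM in untreated osteoclasts (-5.01, SE 0.12, limma adjusted p 3.23e-12). Fcgr3, a low-affinity IgG receptor, was at 264 and 12.7 FPKM (-4.28, SE 0.22, limma adjusted p 2.17e-09). Cd300lb, an activating CD300 receptor, was at -3.33. Pira2 was at 0.617 and 17.7 FPKM (3.53, SE 0.08, limma adjusted p 2.64e-12), but belongs to a family of near-identical copies among which reads can be split. With LPS, 6 of the 17 were higher and 4 lower in macrophages, and 4 higher and 1 lower in osteoclasts (3 and 4 on the TPM scale, 4 and 4 with quantile normalization). Clec4e, which encodes the FcRγ-coupled receptor Mincle, rose by 5.71 in macrophages and 3.74 in osteoclasts (SE 0.17 for both, limma adjusted p 2.95e-11 and 2.79e-08). Cd300lb fell by 4.49 and by 1.30 (SE 0.11, limma adjusted p 5.30e-12 and 5.74e-06).

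Src family kinases, scaffolds and exchange factors numbered 21 tested genes, 7 higher and 11 lower in untreated osteoclasts (4 and 14 after rescaling to TPM). Src, the kinase needed for the ruffled border, was at 1.23 FPKM in untreated macrophages and 109 FPKM in untreated osteoclasts (5.62, SE 0.07, limma adjusted p 1.05e-14). Itgb3, the vitronectin receptor subunit that signals with SYK, was at 1.13 and 103 FPKM (5.62, SE 0.06, limma adjusted p 6.12e-15). Fyn, a family relative of Src, was lower at -2.47 (SE 0.07, limma adjusted p 7.86e-12). With LPS, 15 of the 21 were higher and 5 lower in macrophages (10 and 8 after rescaling to TPM), and 7 higher and 1 lower in osteoclasts. Src rose in macrophages to 46.2 FPKM (4.40, SE 0.07, limma adjusted p 1.30e-13), while in osteoclasts it was at 124 FPKM with LPS (0.19, limma adjusted p 0.0722). The interaction for Src was -4.21 (SE 0.09, limma adjusted p 2.31e-11). Malt1, the paracaspase downstream of CARD9, rose by 3.89 in macrophages and 1.45 in osteoclasts (SE 0.09 for both, limma adjusted p 2.4e-12 and 2.24e-07).

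Of 18 negative regulators of ITAM signals, 12 were lower and 4 higher in untreated osteoclasts, with a median of -0.87 (14 and 3 after rescaling to TPM). Dok2, an adapter that recruits RasGAP, was at 45.4 and 3.21 FPKM (-3.46, SE 0.07, limma adjusted p 6.12e-13), whereas its relative Dok3 was at 17.7 and 78.8 FPKM (2.10, SE 0.07, limma adjusted p 3.75e-11). Cblb, a ubiquitin ligase, was higher at 2.19, and Ubash3b, a phosphatase that acts on SYK, lower at -1.81. With LPS, 11 of the 18 were lower and 6 higher in macrophages (13 and 1 after rescaling to TPM). Inpp5d, the phosphatase SHIP1, fell from 69.3 to 19.7 FPKM (-1.77, SE 0.06, limma adjusted p 6.61e-11) and Sh2b3, an adapter that restrains cytokine receptors, from 48.2 to 12.6 FPKM (-1.85, SE 0.05, limma adjusted p 7.49e-12). In osteoclasts 6 were lower and 2 higher (9 and 0 with quantile normalization), led by Cd300a (-0.46) and Siglece (0.32, adjusted p 0.0909 after quantile normalization).

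Of 16 tested genes of calcium, calcineurin and NFAT, 6 were higher and 5 lower in untreated osteoclasts (4 and 12 after rescaling to TPM). Nfatc1, the master factor of osteoclast formation, was at 7.04 FPKM in untreated macrophages and 114 FPKM in untreated osteoclasts (3.83, SE 0.04, limma adjusted p 2.58e-15), while Nfatc2 was at 12.5 and 0.742 FPKM (-2.95, SE 0.07, limma adjusted p 2.14e-12). Rcan1, an NFAT target that restrains calcineurin, was higher at 2.67 and Orai1, the store-operated calcium channel, lower at -1.16. With LPS, 9 of the 16 were higher and 4 lower in macrophages (2 and 12 after rescaling to TPM), and 3 higher and 2 lower in osteoclasts (2 and 3 on the TPM scale, 1 and 5 with quantile normalization). Rcan1 rose by 3.24 in macrophages (SE 0.06, limma adjusted p 4.03e-13) and Nfatc1 fell by 0.51 there. In osteoclasts Nfatc1 was at 0.23 with LPS (limma adjusted p 0.00148), and at 0.16 (adjusted p 0.0551) after rescaling to TPM. The remaining list, other ITAM adapters and relatives of SYK and TEC, had 3 tested genes. Plcg1, the other phospholipase Cγ, was at 2.75 FPKM in untreated macrophages and 2.41 FPKM in untreated osteoclasts (-0.14, limma adjusted p 0.0554) and fell with LPS in macrophages by 0.69. Cd247 shares 56.4% of its exon bases with Pou2f1 on the opposite strand and is uncertain.

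**Figure D5:**
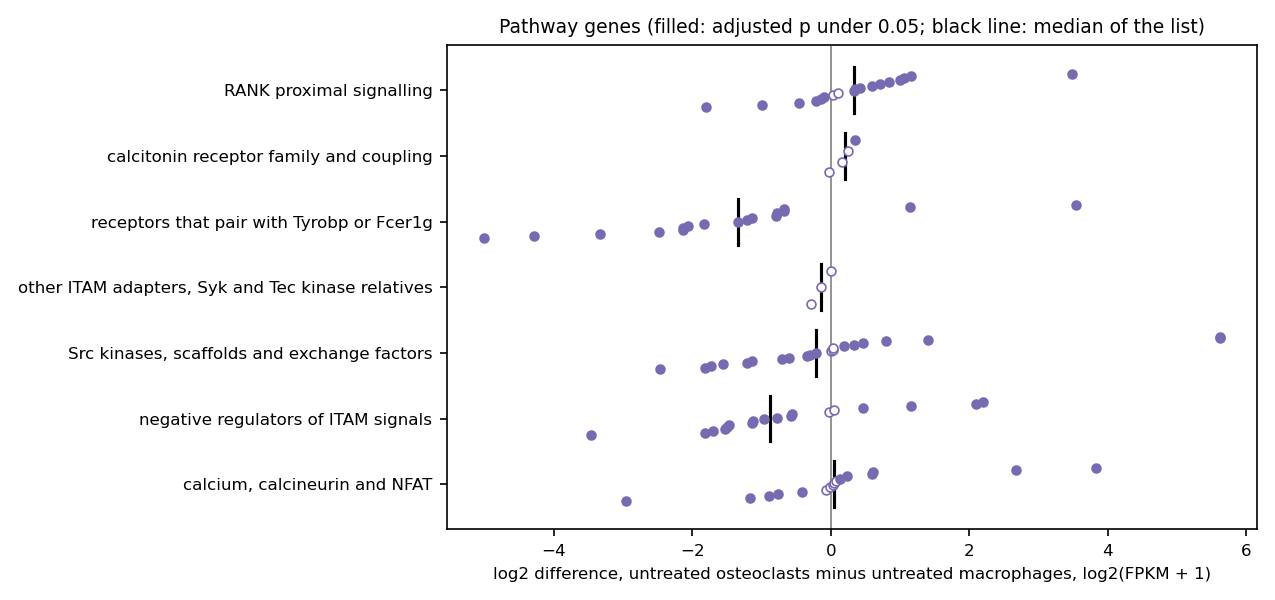
Log2 difference of untreated osteoclasts minus untreated macrophages on the log2(FPKM + 1) scale for each tested gene of the 7 pathway lists; filled points have a limma adjusted p under 0.05 and black lines are list medians. Receptors that pair with DAP12 or FcRγ lie mostly left of 0 (15 of 17, also after rescaling to TPM), and the rightmost points are Src and Itgb3 at 5.62.

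The genes closest to each of the 10 in profile were found by the Euclidean distance between the 4 group means of log2(FPKM + 1), each centred on its own mean, among 11335 genes and over 12 libraries. Calcr lay nearest to Akap6 (distance 0.04 on the log2 scale; 0.0273 FPKM in untreated macrophages and 22.4 FPKM in untreated osteoclasts) and Serpind1. Oscar lay nearest to Akr1c18 (distance 0.10) and Atp6v0d2, an osteoclast subunit of the proton pump, which was much farther at 0.45. Trem2 lay nearest to Abcc3 (0.11) and Cd81 (0.13), at 34.2 and 83.2 FPKM in untreated macrophages and 1.99 and 6.71 FPKM in untreated osteoclasts. Fcer1g lay nearest to Clec4a3 (0.12) and Nfix (0.13). Nfix was at 2.39 FPKM in untreated macrophages and 0.0823 FPKM in untreated osteoclasts, low levels at which the added 1 understates its fall. Syk lay nearest to Tmem63b (0.06) and St3gal3 (0.09), and Tec to Usp9x (0.03) and Paxbp1 (0.04). Tnfrsf11a lay nearest to Atg9a (0.05), Plcg2 to Uimc1 (0.01), Btk to Kansl3 (0.02) and Tyrobp to 5430414B19Rik (0.03).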

How the data were processed

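The authors deposited FPKM values for 54532 Ensembl mouse genes in 12 libraries. The submitters' processing notes name fastp, STAR, featureCounts, DESeq2 and build mm10, with no role or version. Per the labels' protocols, library preparation used an NEBNext Ultra RNA kit. Whole reads were recovered from the FPKM steps (tolerance 0.02) for 99.6% of the 25854 genes above 0, and 96.8% of these matched the exon lengths of GENCODE M21 (GRCm38). The denominators matched median-of-ratios size factors, so a change is relative to the typical gene, which is inferred from the values alone. Strand use in counting is not given in the sources used here, and none of the 10 genes shares exon sequence with another gene.

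All 12 libraries entered 1 fit of 4 group means in limma 3.58.1 (R 4.3.3) on log2(FPKM + 1), with a variance trend and Benjamini-Hochberg adjustment over 11335 genes. Tests were two-sided. The scale understates changes of low genes. The fit was run on simulated data with few genes changed and no change of scaling, so that run does not bear on how results depend on scaling. Named were the 10 genes, from each pathway list up to 4 called genes with the largest absolute difference between untreated cell types and up to 2 for each LPS effect, and the 2 genes nearest to each of the 10 in profile. The genes and lists were chosen with earlier results of these data known. Some genes that the rule or lists hold are not reported here. Protein sequences were not used here. Alternatives tried: dropping the filter or requiring at least 5 FPKM on average, a 0.1 FPKM pseudocount, TPM, quantile normalization, no trend, only the groups compared, a replicate block, voom on recovered reads, and each library left out in turn.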

Additional observations from a re-analysis of the deposited data

Results flagged for a closer look

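For 5 of the 10 genes macrophages and osteoclasts differed in their LPS effect by a test of the difference itself, limma's interaction with adjustment over all genes, where 56.6% of all genes tested were called. The difference, osteoclast effect minus macrophage effect on the log2(FPKM + 1) scale, was -0.94 for Tnfrsf11a, -1.01 for Syk and -0.81 for Tec. These were smaller on the TPM scale (-0.38, -0.46 and -0.26) and with quantile normalization (-0.40, -0.57 and -0.36). It was -0.42 for Fcer1g and -0.28 for Btk, both of the opposite sign on the TPM scale and with quantile normalization. For Calcr the same test gave 0.33, but its macrophage libraries were at the floor in both states, so the value restates the osteoclast effect (voom gave -0.90, and 0.1 as the pseudocount gave an adjusted p of 0.134). The LPS effects of Tnfrsf11a (0.78 in macrophages, -0.15 in osteoclasts) and Tec (0.68 and -0.13) had opposed signs as deposited. The rise of Tec was 0.05 without a call on the TPM scale (adjusted p 0.351), and neither osteoclast fall was called in a fit of the osteoclast groups alone (adjusted p 0.0834 and 0.1004) or with no trend (0.0630 and 0.0529).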

How the results depend on the processing

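Over the alternatives, 960 comparisons of a gene's difference kept direction and side of the threshold, 34 lost and 14 gained a call in the same direction, and 32 reversed, some of these with a change of call. Of all genes, requiring a mean of at least 5 FPKM tested fewer and called 4851 (LPS in macrophages), 5427 and 5694 (cell types without and with LPS) and 4018 (interaction). Quantile normalization called 8 of the 10 genes for LPS in macrophages. For LPS in osteoclasts 3 of the 10 were called with no filter, quantile normalization or no trend, 1 with only the groups compared, and 2 to 6 without single libraries. After rescaling to TPM, the LPS effect in macrophages was -0.52 for Tyrobp, -0.58 for Plcg2 and -0.35 for Btk, that in osteoclasts -0.0555 for Plcg2 and -0.0646 for Btk, and the interaction 0.36 for Trem2, 0.15 for Fcer1g, 0.52 for Plcg2 and 0.29 for Btk. After quantile normalization the macrophage effect was -1.09 for Tyrobp, -0.60 for Fcer1g, -0.46 for Plcg2 and -0.20 for Btk, the osteoclast effect -0.0629 for Plcg2 and -0.0796 for Btk, Tnfrsf11a between LPS-treated cell types 0.0243, and the interaction 0.61 for Trem2, 0.72 for Fcer1g, 0.40 for Plcg2 and 0.12 for Btk. In voom the interaction for Calcr was -0.90, with macrophages at the floor. Without single libraries the osteoclast effect ranged from -0.0464 to 0.0132 for Oscar, -0.0510 to 0.0520 for Plcg2 and -0.0332 to 0.0355 for Btk, Tyrobp between cell types from -0.0290 to 0.0188 without LPS and -0.0610 to 0.0795 with it, and the interaction from -0.37 to 0.0216 for Trem2 and -0.0532 to 0.0874 for Tyrobp. The cause was not tested.

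Deviations of same-numbered libraries correlated at -0.07 to 0.10 over 18 pairs, and those of different-numbered libraries at -0.14 to 0.11 over 36 pairs. Within a cell type the ranges were -0.05 to 0.10 and -0.14 to 0.05. With 3 libraries a group, whether replicate numbers pair the libraries is not settled. A replicate block left the calls among the 10 at 5, 5, 9, 9 and 6 and those over all genes at 7914, 1930, 8787, 9512 and 6422, in the order of LPS in macrophages, LPS in osteoclasts, cell types without and with LPS, and interaction. Depth limits Calcr and Oscar in macrophages, where 3 reads are the floor.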
